A study of Mus musculus with 12 samples.

Results

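The 3p arms of the mouse miR-290 to miR-295 cluster were followed over 12 miRNA arrays of retina and sclera from mice with form-deprivation myopia. The members were taken by name: every array entry of the cluster with the suffix -3p, from mmu-miR-290-3p to mmu-miR-295-3p. They came to 7 of the 696 mouse miRNA names on the array and to 20 of its 1937 probes. Of the 7 members, 3 were detected on at least 1 array (mmu-miR-290-3p, mmu-miR-291a-3p and mmu-miR-294-3p) and 4 were detected on none (mmu-miR-291b-3p, mmu-miR-292-3p, mmu-miR-293-3p and mmu-miR-295-3p). The members were also chosen by their detection in the retina on these arrays, so their retinal level and its contrast with the sclera are given as descriptions, with no test.

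All animals were C57BL/6J mice aged P34. A frosted diffuser was worn over the right eye for 10 days from P24, a treatment that blurs the image and produces myopia in the covered eye, and the uncovered left eye of the same animals served as the control. The 4 groups of 3 arrays were therefore control retina, myopic retina, control sclera and myopic sclera, all of 1 strain and age. Each array held RNA pooled from 3 eyes, although the labels also attach a single mouse number, 1 to 3, to each pool. Arrays with the same number shared a slide and a scan, and each group had the same position on all 3 slides, so position and group cannot be told apart. No array from mice without any diffuser is part of the comparison. The tissues were bulk tissues, so fewer cells of a type and less RNA per cell cannot be told apart.

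The cluster is a run of short hairpins that are transcribed together. Drosha and Dicer cut each hairpin into a 5p and a 3p arm, and for several of these hairpins the 3p arm is the main product. These miRNAs are among the most abundant in mouse embryonic stem cells, where the members with the AAGUGC core in the seed speed the passage from the first gap phase into DNA synthesis by repressing inhibitors of the cell cycle. They are silenced as cells differentiate. The miR-302 cluster of early embryonic cells and the miR-17 family of dividing cells carry the same core. The seed, bases 2 to 8 of the mature miRNA, pairs with target messages.

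The sequences of the members are shown because what the arrays detected did not follow the seed. RefSeq (GRCm38.p6) held a mature sequence for 6 of the 7 members, all on the plus strand of chromosome 7. In each line the seed is in capitals.

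mmu-miR-290-3p (RefSeq mmu-miR-290a-3p, chr7:3218674-3218697): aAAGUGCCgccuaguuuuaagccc
mmu-miR-291a-3p (chr7:3218968-3218989): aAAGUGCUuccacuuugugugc
mmu-miR-291b-3p (chr7:3219529-3219550): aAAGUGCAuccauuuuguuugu
mmu-miR-293-3p (chr7:3220390-3220411): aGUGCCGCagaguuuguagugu
mmu-miR-294-3p (chr7:3220691-3220712): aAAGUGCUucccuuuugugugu
mmu-miR-295-3p (chr7:3220815-3220837): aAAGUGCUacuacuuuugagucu

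A group of 3 members, mmu-miR-291a-3p, mmu-miR-294-3p and mmu-miR-295-3p, had the same seed, AAGUGCU. The first 2 of them were detected in the retina and mmu-miR-295-3p was not detected on any array. Read from the first base, mmu-miR-294-3p was identical to mmu-miR-291a-3p at 19 of 22 positions and to the undetected mmu-miR-291b-3p also at 19 of 22 positions, whereas it was identical to mmu-miR-295-3p at 12 of 22. Among the members with a RefSeq sequence, the seeds of mmu-miR-290-3p, mmu-miR-291b-3p and mmu-miR-293-3p were each found in 1 alone. No sequence was held for mmu-miR-292-3p, so its seed was not compared.

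The array reads a mature miRNA through probes that pair with its 3′ end, in a nested series that differs by 1 base at the other end. Probes of the 3 detected members, and for comparison 1 probe of the undetected mmu-miR-291b-3p, are written 5′ to 3′ as deposited, with the bases that pair with the seed in capitals. Each of the 1937 probe sequences on the array was unique.

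mmu-miR-290-3p, 16 bases: gggcttaaaactaggc
mmu-miR-290-3p, 19 bases: gggcttaaaactaggcGGC
mmu-miR-291a-3p, 18 bases: gcacacaaagtggaAGCA
mmu-miR-291a-3p, 19 bases: gcacacaaagtggaAGCAC
mmu-miR-291a-3p, 20 bases: gcacacaaagtggaAGCACT
mmu-miR-294-3p, 19 bases: acacacaaaagggaAGCAC
mmu-miR-294-3p, 21 bases: acacacaaaagggaAGCACTT
mmu-miR-291b-3p, 19 bases: acaaacaaaatggaTGCAC

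The shortest mmu-miR-290-3p probe covered no base of the seed and the longest covered 3, while the mmu-miR-294-3p probes covered 5 to 7. A miRNA counted as detected on an array where the signal of at least 1 of its probes was more than 3 times its error, a rule that gave the deposited detection flag for all 8352 combinations of miRNA and array. The total gene signal, a background-subtracted fluorescence intensity, sums the detected probes and is listed at 0.1 where there are none.

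mmu-miR-294-3p was the brightest member in the retina. Its total gene signal as deposited was 133, 39.8 and 5.22 in the 3 control retinas and 182, 275 and 124 in the 3 myopic retinas. It was not detected on any of the 6 sclera arrays. Control retinas 2 and 3 were the lowest of the 6 retina arrays, and the first control retina lay above the third myopic retina, so on this scale the groups overlapped. In the 3 myopic retinas mmu-miR-294-3p stood 166th to 183rd by brightness among the 376 to 401 miRNAs detected, near the middle, and in the third control retina it stood 337th of 353.

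mmu-miR-291a-3p followed mmu-miR-294-3p at a lower signal. It gave 37.6 and 6.94 in the first and second control retinas and was not detected in the third. In the myopic retinas it gave 75.2, 128 and 34.3, and it was not detected on any sclera array. The third myopic retina lay below the first control retina, so these groups overlapped as well. On the 5 arrays that detected both, the ratio of mmu-miR-294-3p to mmu-miR-291a-3p lay between 2.15 and 5.73.

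mmu-miR-290-3p was the only member detected on all 12 arrays, and its signal scarcely moved. It was 26.8, 17.9 and 29.5 in the control retinas and 21.7, 25.0 and 20.5 in the myopic retinas. In the control scleras it was 21.6, 24.7 and 30.5, and in the myopic scleras 24.2, 23.3 and 22.7. All 4 groups overlapped, and the highest array was 1.71 times the lowest. For the 246 names that every array detected, the median of that ratio was 8.09, and 4 of them had a lower ratio than mmu-miR-290-3p.

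**Figure D1:**
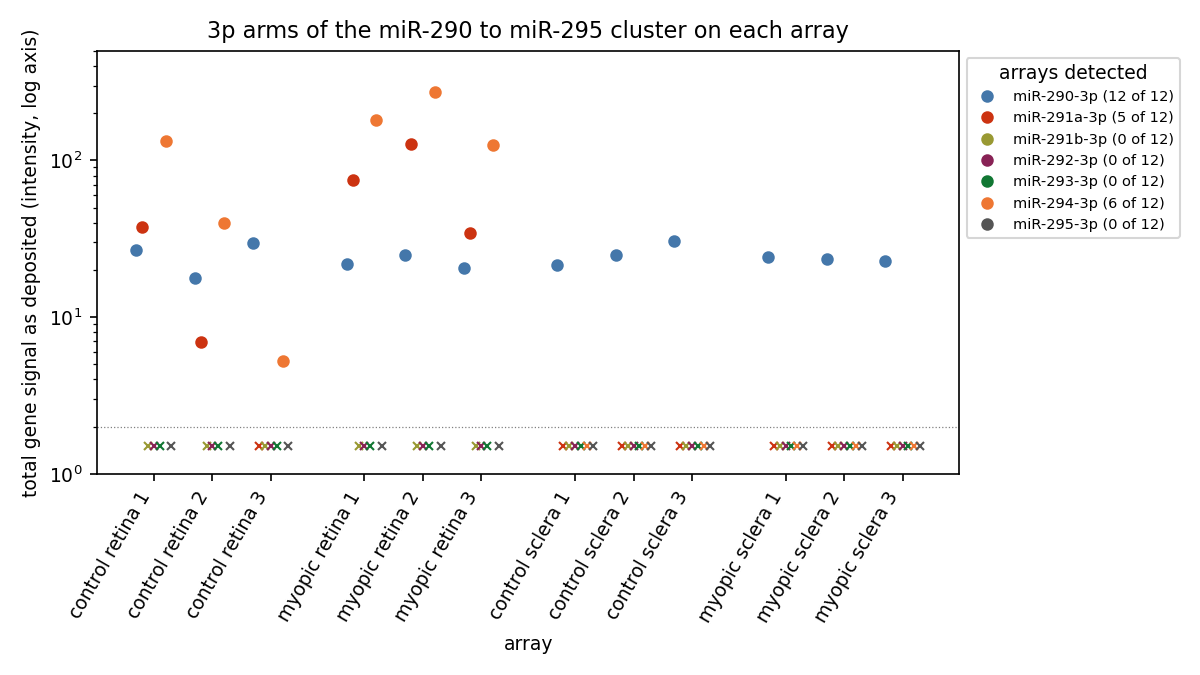
Total gene signal as deposited (intensity, log axis) of the 7 members on each of the 12 arrays. Dots are arrays that detected the member and crosses under the dotted line are arrays that did not, placed there without a value. miR-290-3p lies between 17.9 and 30.5 on every array, miR-294-3p and miR-291a-3p appear on retina arrays alone, and the other 4 members are crosses throughout.

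The pattern of detection was also that of many other miRNAs. Both mmu-miR-291a-3p and mmu-miR-294-3p were detected on at least 5 of 6 retina arrays and no sclera array, as were 62 of the 696 names (8.91%). Detection on no array, as for 4 of the 7 members, held for 253 names (36.4%). Detection on all arrays, as for mmu-miR-290-3p, held for 246 names (35.3%).

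The probes of the 4 undetected members stayed near background on every array. Their highest ratio of signal to error was 1.23, for a mmu-miR-295-3p probe in the second myopic sclera, against the 3 that detection needs. The highest value was 0.825 for mmu-miR-291b-3p, 0.485 for mmu-miR-292-3p and 0.203 for mmu-miR-293-3p. Not detected therefore means below this limit and not absent.

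The 3 probes of mmu-miR-294-3p agreed closely. Each was above 3 times its error on at least 5 of the 6 retina arrays, and the 19-base probe on all 6. On the 5 arrays where both were above the limit, the 19-base probe gave 1.43 to 1.62 times the signal of the 21-base probe. In the third control retina the 19-base probe alone passed, at 3.2 times its error. On the 6 sclera arrays the highest ratio of signal to error of any of its probes was 1.9.

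The 3 probes of mmu-miR-291a-3p gave unequal signals. The 19-base probe passed on 5 retina arrays, the 20-base probe on 4 and the 18-base probe on 2. Where both passed, the 19-base probe was 1.61 to 2.09 times as bright as the 20-base probe and 3.13 to 7.50 times as bright as the 18-base probe, which lacks 1 of its bases.

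The 4 probes of mmu-miR-290-3p all passed on all 12 arrays, at 3.22 to 7.07 times their error. The 16-base probe, which covers no seed base, was 0.780 to 1.24 times as bright as the 19-base probe. The coefficient of variation over the repeated spots of a probe had a median of 14.2% for mmu-miR-290-3p, 9.81% for mmu-miR-291a-3p and 7.38% for mmu-miR-294-3p.

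**Figure D2:**
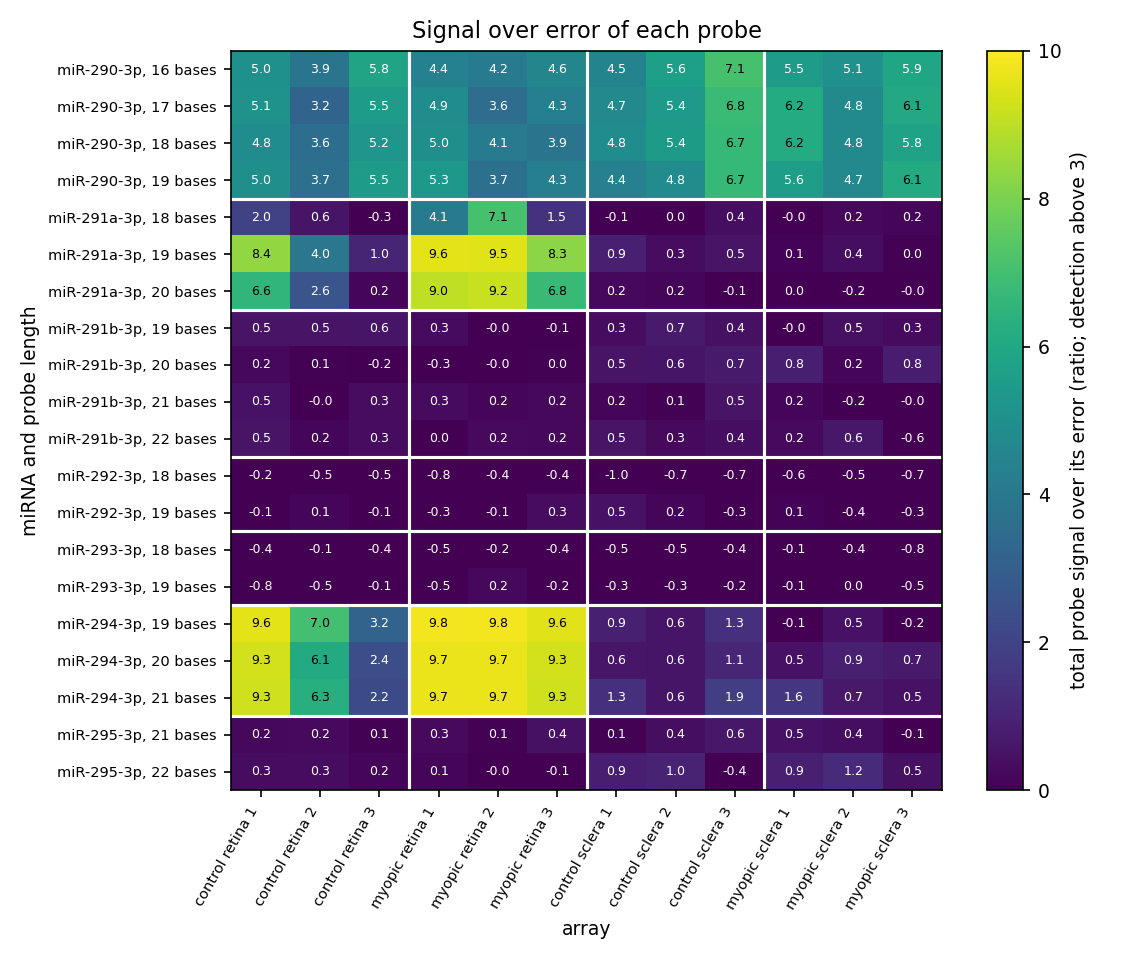
Total probe signal divided by its error for the 20 probes of the 7 members (rows, labelled by member and probe length in bases) on the 12 arrays (columns). Values above 3 count as detected. The 3 probes of miR-294-3p reach 9.3 to 9.8 on the first control retina and all myopic retinas and 1.9 at most in the sclera, while no probe of the 4 undetected members is above 1.23.

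In the comparison of the 2 tissues of the control eyes, mmu-miR-294-3p was higher in the retina. The sclera gave only a limit, so no fold between the tissues was measured. Signals were scaled to the 75th percentile of the miRNAs detected on all arrays. The mean of the control retinas was then 4.84-fold the limit set for the control scleras. That limit was the same for mmu-miR-291a-3p and mmu-miR-294-3p, so it did not follow the error of their own probes. The retinal total also sums up to 3 probes. The fold is therefore not a lower bound on the tissue difference. The third control retina, at 3.93 on this scale, lay under the mean limit of 4.84. Without it the fold over the limit was 11.8, and without the first control retina 2.28. In the myopic eyes the mean of the retinas was 28.8-fold the scleral limit for mmu-miR-294-3p and 10.8-fold for mmu-miR-291a-3p. For mmu-miR-291a-3p in the control eyes, which was detected in 2 of 3 retinas, the mean did not exceed the limit and no fold is given. The sclera arrays were dimmer as a whole: this 75th percentile was 276 to 803 in the sclera and 1024 to 1414 in the retina.

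For mmu-miR-290-3p the same comparison depended on the scale. As deposited, its mean was 24.7 ± 6.11 in the control retinas and 25.6 ± 4.55 in the control scleras (SD, n = 3 each). After quantile normalization, which gives every array the same distribution of values, its log2 level was 4.34 ± 0.65 in the control retinas and 5.93 ± 0.87 in the control scleras, lower in the retina by a log2 difference of -1.60, with no overlap between the 2 groups. Over the 246 names that all arrays detected, the log2 difference had a median of -0.24 on that scale, 0.13 after scaling to the 75th percentile and 1.17 with no normalization. With each tissue normalized on its own, the log2 difference of mmu-miR-290-3p was 0.44, in the opposite direction. On the quantile-normalized scale 2 of the 3 detected members, mmu-miR-290-3p and mmu-miR-294-3p, did not overlap between control retina and control sclera, beside 58.9% of the 443 miRNAs detected on any array. This contrast chose the members, so nothing is read from the count.

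**Figure D3:**
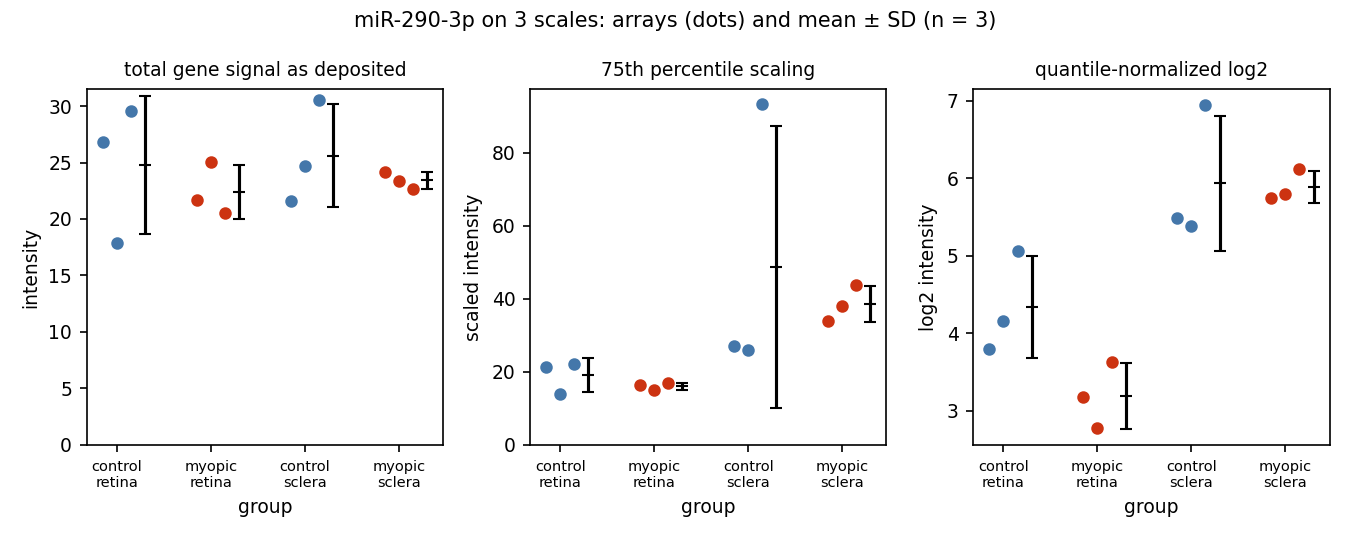
miR-290-3p in the 4 groups as deposited (intensity), after scaling to the 75th percentile of the miRNAs detected on all arrays (scaled intensity) and after quantile normalization (log2 intensity). Dots are arrays and bars are the mean ± SD of 3 arrays. The groups overlap as deposited, and after quantile normalization the 6 sclera arrays lie above the 6 retina arrays.

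The comparison of myopic with control retina asked whether the cluster changed in the deprived eye. It used 1 limma fit over the 4 groups with 8 residual degrees of freedom, with p-values adjusted by the Benjamini-Hochberg method over the 443 miRNAs detected on any array. A miRNA was called at an adjusted p under 0.05 and a change of at least 2-fold. The authors listed the 3 detected members as changed in the myopic retina, at an FDR-adjusted p under 0.05 and at least 2-fold. That list came from these same arrays, so the members' direction in this comparison is not independent evidence. The fit here called none of the 3, although the direction of each was the same as in that list. The authors' methods also name a removal of outliers before their test, which was not repeated here. The cause of the difference from the authors' list was not tested.

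On the quantile-normalized log2 scale the mean of mmu-miR-291a-3p was 1.99 ± 2.73 in the control retinas and 5.14 ± 0.64 in the myopic retinas (SD, n = 3 each), a log2 difference of 3.15 (SE 1.07, limma adjusted p = 0.134). This control mean includes the third control retina at the floor, so the difference depends on the floor. For mmu-miR-294-3p the means were 4.85 ± 1.90 and 6.68 ± 0.16, a log2 difference of 1.83 (SE 0.73, limma adjusted p = 0.151). For both, the control retinas spread wider than the myopic retinas.

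For mmu-miR-290-3p the means were 4.34 ± 0.65 and 3.19 ± 0.43, a log2 difference of -1.14 (SE 0.46, limma adjusted p = 0.151). After scaling to the 75th percentile its log2 difference was -0.22, and with no normalization -0.12. Across the 329 names found on all 6 retina arrays, the change had a log2 median of -0.22 on the quantile-normalized scale, -0.02 after scaling to the 75th percentile and 0.09 with none.

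None of the 7 members was called, beside 1 of 443 miRNAs (0.226%). At an unadjusted p under 0.05 the fit gave 2 members higher in the myopic retina, beside 14% of all miRNAs tested, and 1 lower, beside 15.3%. Both higher members sat at the floor on all 6 sclera arrays, where the residuals that enter the shared estimate of spread are 0. Fitted to the retina arrays alone, the unadjusted limma p was 0.096 for mmu-miR-291a-3p (SE 1.51) and 0.141 for mmu-miR-294-3p (SE 1.03), and both were lost at this threshold, while mmu-miR-290-3p had 0.046. On the quantile-normalized scale the 3 myopic retinas lay above the 3 control retinas with no overlap for mmu-miR-291a-3p and mmu-miR-294-3p, beside 5.19% of the miRNAs tested, and below them for mmu-miR-290-3p, beside 9.26%. After scaling to the 75th percentile, and as deposited, none of the 3 detected members was free of overlap, beside 4.51% and 3.16% that were higher in the myopic retina.

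The median log2 change over the 3 members tested was 1.83, beside -0.12 over all 443 miRNAs. The members that made up this median passed the filter through their retina arrays alone, except mmu-miR-290-3p.

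Each slide held 1 array of every group, and within slides the retina direction of mmu-miR-291a-3p and mmu-miR-294-3p was the same. In the first pair mmu-miR-294-3p was 1.37 times as bright in the myopic as in the control retina, in the second 6.91 times and in the third 23.8 times. For mmu-miR-291a-3p the first 2 ratios were 2.00 and 18.4, and the third control retina was not detected. The total sums only detected probes, so the ratios of 23.8 and 18.4 set 3 probes against 1, and the ratio of 2.00 set 3 against 2. On its 19-base probe alone, mmu-miR-294-3p gave 5.22 in the third control and 50.9 in the third myopic retina. The 19-base probe of mmu-miR-291a-3p gave 6.94 in the second control and 65.8 in the second myopic retina. Both members were higher in the myopic retina in 3 of 3 pairs. mmu-miR-290-3p was 0.808, 1.40 and 0.694 times as bright, lower in 2 of 3 pairs as deposited and in 3 of 3 after quantile normalization.

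The size of the retina difference rested on the third control retina. Without it the log2 difference was 1.64 for mmu-miR-291a-3p and 0.75 for mmu-miR-294-3p. Without the first control retina it was 4.29 and 2.65, and both members were then called (limma adjusted p = 0.0041 and 0.0082), as were 122 of all 442 miRNAs tested (27.6%). With arrays weighted by their agreement with the rest of their group, all 3 detected members were called, at log2 differences of 2.81, 1.42 and -1.09 for mmu-miR-291a-3p, mmu-miR-294-3p and mmu-miR-290-3p (limma adjusted p = 0.00011, 0.00074 and 0.00041), beside 146 of all 443 miRNAs (33%).

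**Figure D4:**
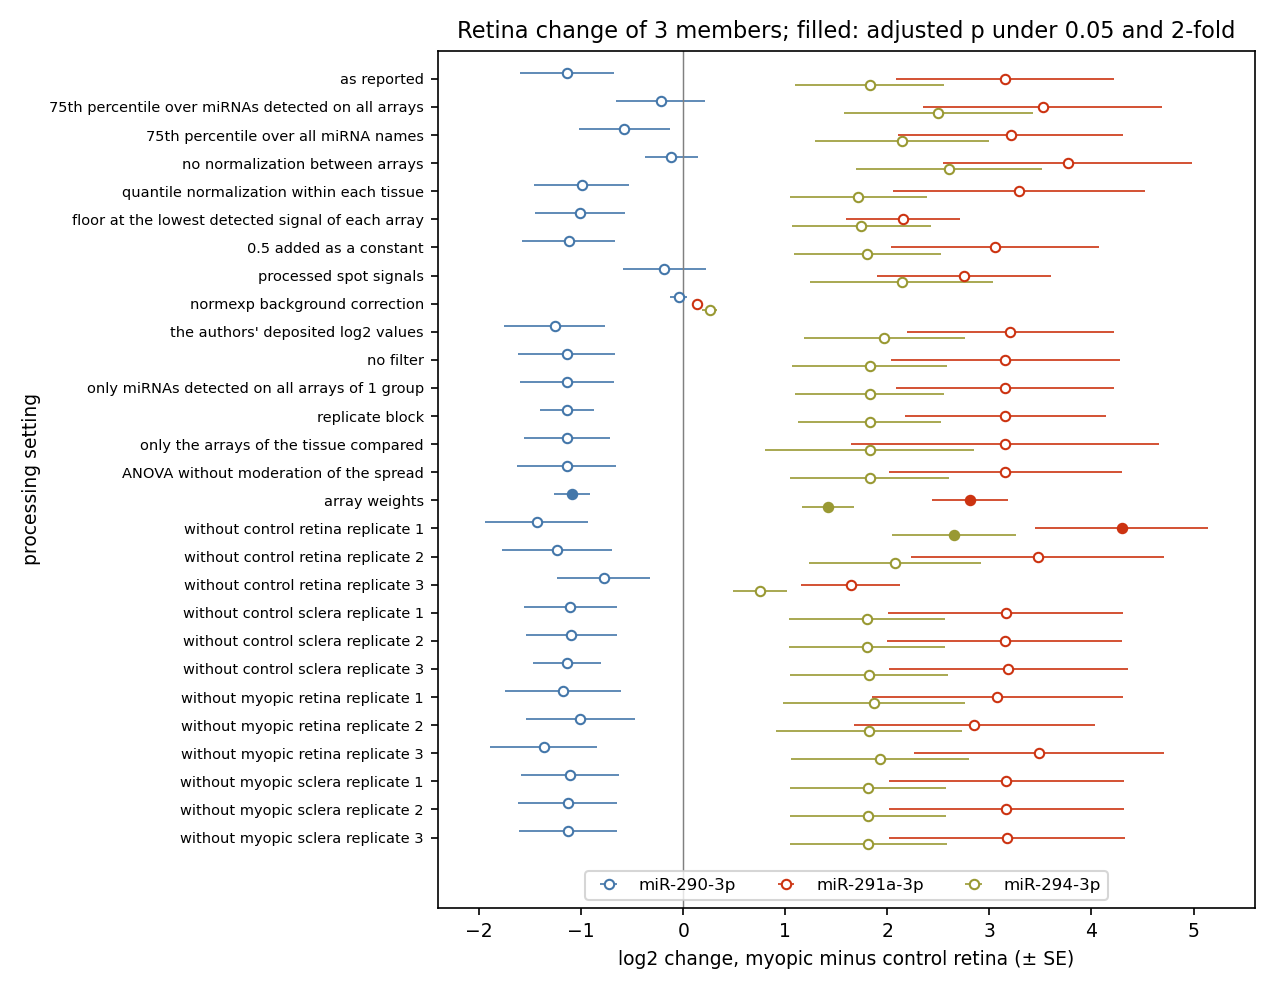
Log2 difference between myopic and control retina of the 3 detected members (± SE of the fit), as reported and under each alternative processing. Filled points pass an adjusted p under 0.05 and a 2-fold change. Filled points occur with array weights and without the first control retina, and without the third control retina the differences of miR-291a-3p and miR-294-3p drop to 1.64 and 0.75.

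That library stood apart in other miRNAs too. The summed signal of 4 markers of scleral mesenchyme (mmu-miR-199a-5p, mmu-miR-199a-3p, mmu-miR-199b-5p and mmu-miR-214-3p) was 405 in the third control retina and 64.2 to 119 in the other 5 retinas, against 7656 to 23168 in the scleras. mmu-miR-214-3p was detected on no retina array. The 6 markers of retinal neurons and photoreceptors summed to 274511 in that library and to 205617 to 308135 in the other retinas, against 843 to 13706 in the scleras. The part of this in the result was not tested.

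In the sclera mmu-miR-290-3p was the only member with values to compare, since the other 6 were detected on no sclera array. It was not called by limma, beside 0 of 443 miRNAs (0%), and did not pass an unadjusted p under 0.05, beside 2.93% of all miRNAs. It had log2 means of 5.93 ± 0.87 in the control and 5.89 ± 0.20 in the myopic scleras (SD, n = 3 each). The log2 difference was -0.05 (SE 0.46, limma adjusted p = 1). The difference between the retina and the sclera change was tested in the same fit. For mmu-miR-290-3p it had a limma adjusted p of 0.386 and was not called, beside 0.226% of all miRNAs, nor did it pass an unadjusted p under 0.05, beside 8.13%. For mmu-miR-291a-3p and mmu-miR-294-3p no scleral change was measured, so for them this test restates the retina difference.

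The 5p arms of the same hairpins, 7 of 7 on the array, did not mirror the 3p arms. mmu-miR-291b-5p was detected on all 12 arrays, at 9.5 to 31.0 in the retina and 11.6 to 27.7 in the sclera, while its partner mmu-miR-291b-3p was detected on none. mmu-miR-290-5p was detected on 3 retina arrays at 3.23 to 4.08. The 5p partners of mmu-miR-291a-3p and mmu-miR-294-3p were detected on no array. None of the 5p arms was called in the retina or the sclera. Over the 12 arrays mmu-miR-291b-5p and mmu-miR-290-3p had a Pearson r of 0.96 on the quantile-normalized scale and 0.81 with no normalization.

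Other markers of pluripotent cells were detected on few arrays and at low signal. Of the 5 members of the miR-302 cluster measured, with mmu-miR-367-3p, mmu-miR-302d-3p and mmu-miR-367-3p were detected on no array and none was detected in the sclera. mmu-miR-302c-3p gave 6.30 in the first control retina and 11.3 and 16.3 in the first and second myopic retinas. mmu-miR-302a-3p gave 8.58 and 12.8 in the same myopic retinas, and mmu-miR-302b-3p gave 3.01 in the first of them. Their summed signal was 0 to 6.30 in the control retinas and 0 to 29.1 in the myopic retinas, and none was called. These detections fell on the 3 arrays with the highest mmu-miR-294-3p signal.

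The miR-302 family also held the longest sequence runs outside the cluster in common with mmu-miR-291a-3p and mmu-miR-294-3p. Among miRNAs outside the cluster, mmu-miR-291a-3p shared its longest run, 11 bases, with mmu-miR-302b-3p, mmu-miR-302c-3p and mmu-miR-302d-3p, and mmu-miR-294-3p shared 10 bases with the same miRNAs. Of these runs 10 bases fell in the stretch that the longest probe of each member reads, and the shorter probes read fewer. On the array where mmu-miR-294-3p reached 275, mmu-miR-302c-3p was detected at 16.3, while mmu-miR-302b-3p and mmu-miR-302d-3p were listed as not detected. Whether the shared runs carried signal between these names was not tested. Among the sequences compared, mmu-miR-290-3p shared no more than 7 bases with any miRNA outside the cluster. Its longest run with any miRNA, 8 bases, was with the cluster member mmu-miR-293-3p, which was not detected. Of these 8 bases, 5 fell in the stretch that its longest probe reads. RefSeq held no mature sequence for mmu-miR-292-3p, so this member was compared only over the stretch its longest probe reads.

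Of the undetected members, 3 shared their longest runs with miRNAs that were bright in the same retinas. mmu-miR-293-3p shared 8 bases with mmu-let-7g-5p, which gave 11152 to 17195 in the retina, and mmu-miR-291b-3p shared 8 bases with mmu-miR-7a-5p, which gave 983 to 1401. mmu-miR-295-3p shared 8 bases with mmu-miR-106b-5p of the miR-17 family, which gave 570 to 899. For mmu-miR-292-3p only the stretch that its longest probe reads was compared. The longest run in that stretch, 9 bases, was shared with the undetected mmu-miR-302d-3p. Runs elsewhere in this member were not compared.

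The miR-17 family, which carries the same AAAGUGC run, was present in both tissues. Of the 5 members on the array, 4 (mmu-miR-20a-5p, mmu-miR-20b-5p, mmu-miR-93-5p and mmu-miR-106b-5p) were detected on all 12 arrays, and mmu-miR-17-5p was detected on none. Their log2 change in the myopic retina ranged from -0.41 to -0.09 and none was called. Their summed signal was 1072 to 1765 in the retina and 225 to 786 in the sclera.

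In the list with a similar seed, mmu-miR-467c-5p and mmu-miR-105 were, like mmu-miR-294-3p, lowest in the third control retina and highest in the second myopic retina. mmu-miR-467c-5p gave 129, 27.8 and 8.45 in the control retinas and 210.0, 314 and 132 in the myopic retinas, and it was not detected in the sclera. mmu-miR-105 gave 10.8 and 4.16 in the first 2 control retinas, was not detected in the third, and gave 26.3, 32.2 and 12.6 in the myopic retinas. Their log2 differences were 2.08 (SE 0.61, limma adjusted p = 0.134) and 1.99 (SE 0.75, limma adjusted p = 0.151), so neither was called. mmu-miR-467b-5p and mmu-miR-467e-5p, of the same family as mmu-miR-467c-5p, gave 27.8 to 48.1 and 26.2 to 49.6 over the 6 retina arrays, with myopic and control retinas overlapping.

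Of the 352 miRNAs outside the cluster that were detected on at least 6 arrays, those with a pattern most like mmu-miR-294-3p over the 12 arrays were mmu-miR-669e-5p, mmu-miR-466h-5p and mmu-miR-669b-5p. Pearson r on the quantile-normalized scale was 1.00 for each after rounding and 0.99, 0.98 and 0.97 over the 6 retina arrays alone. The points share arrays, tissue and total signal, so r is a description. mmu-miR-669e-5p gave 173, 36.6 and 7.86 in the control retinas and 239, 374 and 150 in the myopic retinas, and all 3 were listed as not detected in the sclera. The same order of arrays held for mmu-miR-466h-5p, from 11.4 in the third control retina to 469 in the second myopic retina.

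**Figure D5:**
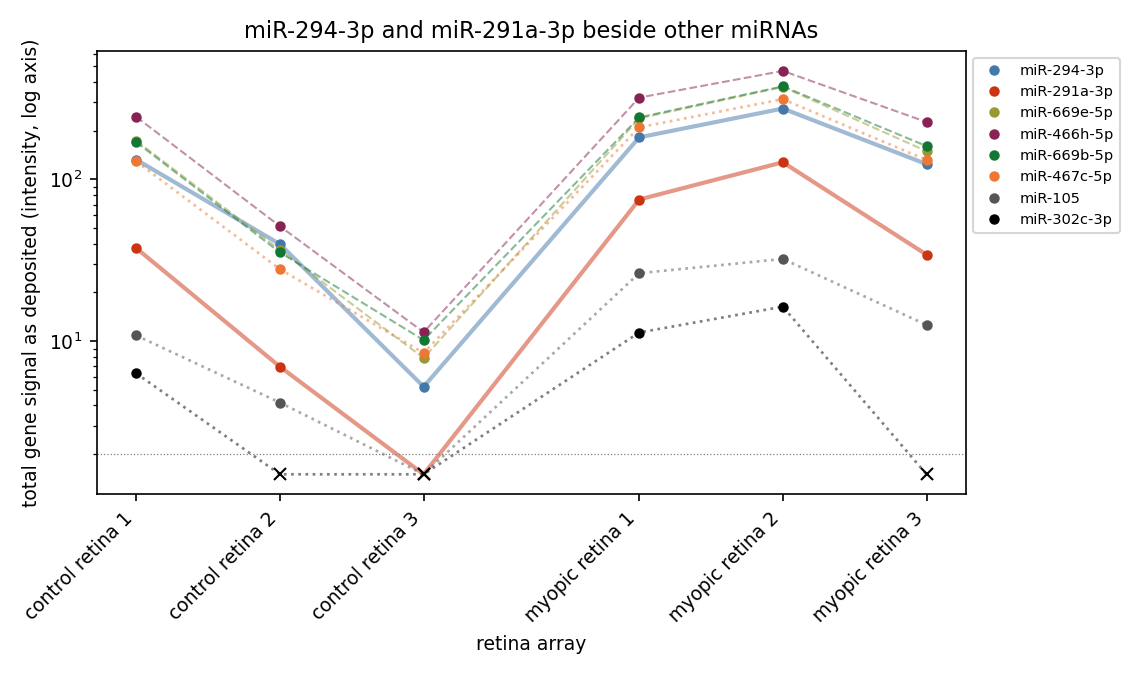
Total gene signal as deposited (intensity, log axis) of miR-294-3p, miR-291a-3p, the 3 miRNAs with the most similar pattern and 3 miRNAs of the fixed lists on the 6 retina arrays. Lines join the values of 1 miRNA and crosses are arrays that did not detect it. Each has its lowest value or a cross in the third control retina and its highest in the second myopic retina. The list miRNAs shown were picked, and others of these lists, such as miR-467a-5p and miR-20a-5p, had another order.

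The order of the retina arrays was not that of their total brightness. The 75th percentile of the miRNAs detected on all arrays differed 1.38-fold between the dimmest and the brightest retina array, whereas mmu-miR-294-3p differed 52.6-fold. That fold set all its probes in the second myopic retina against the 19-base probe alone in the third control retina. On the 19-base probe the signals were 111 in the second myopic retina and 5.22 in the third control retina. The third control retina had a percentile of 1122, above 4 of the other 5 retina arrays, and the lowest mmu-miR-294-3p.

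The stretch that the longest probe reads is shown for each in lower case, with mmu-miR-467c-5p beside them.

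mmu-miR-669e-5p: ugugugugcauguucau
mmu-miR-466h-5p: gugcaugugcuugugugua
mmu-miR-669b-5p: ugugugcaugugcaugu
mmu-miR-467c-5p: gugcgugcauguauaugug

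The run shared with mmu-miR-294-3p was 7 bases for mmu-miR-669e-5p, 8 for mmu-miR-466h-5p and 6 for mmu-miR-669b-5p, and in each it held U and G alone. In its printed stretch mmu-miR-467c-5p shared a run of 4 bases with mmu-miR-294-3p, gugc. No mature sequence was held for these names, so their bases outside the printed stretches were not compared. The 5-base string GUGUG was then searched, on the miRNA strand and with overlaps counted once, in the stretch read by the longest probe of all 696 names, a search chosen after these values were seen. It occurred in 32 names (4.60%). Among the members it occurred in mmu-miR-291a-3p and mmu-miR-294-3p, and not in mmu-miR-290-3p or the 4 undetected members. Of the 32 names with the string, 14 (43.8%) were detected on at least 5 retina arrays and no sclera array, and of the 664 without it 48 (7.23%) were. The 5 names that prompted the search, among them both members, are part of the 14, and of the other 27 names with the string 9 (33.3%) had this pattern. The string was not found in mmu-miR-467c-5p, mmu-miR-105 or mmu-miR-338-5p, which were also lowest in the third control and highest in the second myopic retina. Of the names with the string 5 (15.6%) were detected on no array, and of those without it 248 (37.3%). The part of this in the members' signals was not tested.

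mmu-miR-290-3p had other companions. Those most like it were mmu-let-7f-1-3p, mmu-miR-702 and mmu-let-7b-3p, with r of 1.00, 1.00 and 0.99 on the quantile-normalized scale. These were also dim, with ranges that reached above that of mmu-miR-290-3p: in the retina mmu-let-7f-1-3p gave 22.1 to 33.1, mmu-miR-702 27.4 to 42.7 and mmu-let-7b-3p 24.2 to 46.5. None shared more than 4 bases in a row with mmu-miR-290-3p, with mmu-miR-702 compared only over the stretch its longest probe reads. Against the other detected members mmu-miR-290-3p had r of -0.93 with both on that scale and -0.27 with mmu-miR-291a-3p and -0.24 with mmu-miR-294-3p with no normalization, while mmu-miR-291a-3p and mmu-miR-294-3p had 0.95 and 0.96 with each other.

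mmu-miR-291a-3p was detected on 5 arrays, 1 short of the rule for this search, and was compared after its values were seen. The miRNAs most like it were mmu-miR-1894-3p, mmu-miR-338-5p and mmu-miR-500-3p (r of 0.98, 0.97 and 0.96). They were brighter and were also detected on all 6 sclera arrays. mmu-miR-338-5p gave 123, 34.5 and 14.1 in the control retinas and 209, 277 and 131 in the myopic retinas. mmu-miR-1894-3p was also lowest in the third control retina, at 26.8, but highest in the first myopic retina, at 566 against 539 in the second.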

How the data were processed

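Total RNA from pools of 3 retinas or 3 scleras was labelled with Cy3 and hybridized to 1-colour Agilent mouse miRNA arrays. The authors deposited background-subtracted spot, probe and total gene intensity from Agilent Feature Extraction (version 11.0.1.1 per the file headers, mm9). They also deposited log2 values, with the minimum set to 0.5 and quantile normalization in Partek 6.6, which served as an alternative (Pearson r of 0.999 with the values used here, over 437 names). The flags and errors are those of the same files. No spot was saturated, and 353 to 401 miRNAs were detected on the retina arrays and 274 to 317 on the sclera arrays. The number of arrays and spots limits the precision. No column came from outside the series.

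Total gene intensity was floored at 0.5, quantile-normalized over 696 names and 12 arrays and put on the log2 scale with limma 3.58.1 in R 4.3.3, and limma (lmFit, eBayes) was fitted to the 443 names detected on any array. The methods name a plain analysis of variance, run here as an alternative. The fit was tested on simulated data. A difference against an undetected array depends on the floor, and quantile normalization makes a miRNA's value depend on its rank among the others. Replicates are separate pools by the labels.

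Members and lists were chosen with earlier results of these data known. Named were all members, the fixed lists, for each member detected on at least 6 arrays the 3 most correlated miRNAs, and the longest shared runs. Lists held the 5p arms, the miR-302 cluster, the miR-17 family, miRNAs of similar seed, and markers of retinal neurons, scleral mesenchyme, blood, muscle and pigment epithelium. mmu-miR-106a-5p was not on the array under that name. Blood markers summed to 292 to 608 in the retina and 526 to 1455 in the sclera, muscle markers to 251 to 534 and 1314 to 4800, and pigment epithelium markers to 18089 to 23878 and 3137 to 7153. No marker was called in either tissue. RefSeq names and sequences matched 555 of the 696 names, 520 by name and probe, 27 by probe alone and 8 by name only; for the rest, shared runs used the stretch the probe reads.

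The pool number pairs the arrays, since the labels give both eyes of a number the same mouse. Deviations of same-numbered arrays over the 246 miRNAs detected on all arrays correlated at 0.38, -0.46 and 0.59 in the retina and at -0.14, -0.16 and -0.00 in the sclera.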

Additional observations from a re-analysis of the deposited data

How the results depend on the processing

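The number of members called in the retina, 0, was 3 with array weights, a fit whose weights did not fully converge, and 0 to 2 with each array left out in turn. It was 0 under the other 14 alternatives. The number called for the difference between tissues, 0, was likewise 3 with array weights and 0 to 2 with an array left out. Over all miRNAs the retina calls went from 1 to 146 with array weights and to 122 without control retina 1, the array behind both counts of 2, and the calls for the difference between tissues from 1 to 156 and 112. In the sclera, where mmu-miR-290-3p alone has values, it was 0 under all 27 alternatives. With the replicate block, which pairs the arrays by pool number, the log2 difference of mmu-miR-291a-3p in the retina was 3.15 at a limma adjusted p of 0.14, and the block changed no call. The retina difference kept its direction under all 27 alternatives: it ranged from 0.14 to 4.29 for mmu-miR-291a-3p, from 0.26 to 2.65 for mmu-miR-294-3p and from -1.44 to -0.05 for mmu-miR-290-3p. The values nearest 0 came from normexp correction, which adds an offset of 50, above most of these signals. The sclera difference of mmu-miR-290-3p, -0.05, turned to 0.011 with the 75th percentile over all names, to 0.42 with array weights, and to between -0.32 and 0.46 with an array left out. Between control retina and control sclera, 2 members did not overlap, but 1 did so with no normalization, with quantile normalization within each tissue, with processed spot signals and with normexp correction, and 2 to 3 with an array left out. The log2 difference of mmu-miR-290-3p there was -1.60, and 0.44 with quantile normalization within each tissue. That of mmu-miR-294-3p, 5.85 against the floor, was 3.20 with the floor at each array's lowest detected signal and 0.18 with normexp correction. Where no other reason is given, the cause was not tested. The fold of mmu-miR-294-3p over the scleral limit was recomputed without each control retina after the data were seen, and lay between 2.28 and 11.8. The limits are 3 pools a group, signals at 3 to 10 times their error, and a detection limit that leaves 4 members without a value on any array and all members but mmu-miR-290-3p without one in the sclera.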
